A study of Mus musculus with 4 samples.

Results

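The 9 genes described here are the 8 mouse Smad genes and Bambi, taken by their symbols from the 32285 genes of the count tables. They were measured in single cells of mouse ovaries. Mice of postnatal day 25 received 2 weekly doses, and the ovaries were taken 4 hours after the second. The control group received PBS or saline. The second group received doxorubicin, an anthracycline that damages DNA, at 3 mg/kg. The third received doxorubicin at 3 mg/kg with recombinant human anti-Müllerian hormone (AMH) at 0.75 mg/kg, and the fourth AMH at 0.75 mg/kg alone. Each group is 1 library, made from 5 pooled ovaries, 1 from each of 5 animals. No spread between animals was therefore measured, and no test between groups was made. The hormone is human and the cells are mouse. The strain and the route of dosing are not given in the sources used here. The title of the series poses the question of whether AMH guards ovaries against doxorubicin by way of DNA damage responses and the fate of cells.

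Smad proteins carry signals from receptors of the TGF-β family to the nucleus. Ligands join type 1 and type 2 receptors, and the type 1 receptor then phosphorylates receptor-regulated Smads: Smad1, Smad5 and Smad9 for BMPs and AMH, and Smad2 and Smad3 for TGF-β and activin. These bind the common Smad, Smad4, and act on genes with it. Smad6 and Smad7 are inhibitory Smads that block this step and are themselves induced by the pathway, Smad6 acting mainly on the BMP branch and Smad7 on both. Bambi is a pseudoreceptor that resembles a type 1 receptor without its kinase. In the ovary, growing follicles make AMH in their granulosa cells, and these cells carry its type 2 receptor, Amhr2.

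Of the 9 genes, 5 were matched by symbol to the RefSeq promoter table of GRCm38.p6, which holds 250 bases before and 50 after a start. Windows are shown for the 3 matched genes, Smad6, Smad3 and Smad9, whose levels in granulosa-like cells differed by over 1.5-fold in both comparisons with AMH below. Capitals mark the letters GGCGCC, a GC-rich Smad site, or CAGAC, the Smad box, searched on both strands (GGCGCC is its own reverse, and CAGAC reads GTCTG). The Smad6 window is chr9:64022010-64022309 and the Smad3 window chr9:63757945-63758244, both on the minus strand. The Smad9 window is chr3:54755332-54755631 on the plus strand.
Smad6: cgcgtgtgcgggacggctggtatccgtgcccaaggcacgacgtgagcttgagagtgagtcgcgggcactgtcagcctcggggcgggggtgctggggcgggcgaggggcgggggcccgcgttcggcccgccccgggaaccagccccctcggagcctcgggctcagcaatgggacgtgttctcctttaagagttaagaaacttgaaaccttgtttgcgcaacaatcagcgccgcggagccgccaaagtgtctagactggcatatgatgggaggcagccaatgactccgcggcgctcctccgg
Smad3: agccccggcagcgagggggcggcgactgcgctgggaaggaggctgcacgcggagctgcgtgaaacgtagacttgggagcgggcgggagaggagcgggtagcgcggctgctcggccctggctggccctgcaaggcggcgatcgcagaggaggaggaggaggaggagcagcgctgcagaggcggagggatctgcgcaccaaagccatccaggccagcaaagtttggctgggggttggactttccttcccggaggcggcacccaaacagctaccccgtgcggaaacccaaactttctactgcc
Smad9: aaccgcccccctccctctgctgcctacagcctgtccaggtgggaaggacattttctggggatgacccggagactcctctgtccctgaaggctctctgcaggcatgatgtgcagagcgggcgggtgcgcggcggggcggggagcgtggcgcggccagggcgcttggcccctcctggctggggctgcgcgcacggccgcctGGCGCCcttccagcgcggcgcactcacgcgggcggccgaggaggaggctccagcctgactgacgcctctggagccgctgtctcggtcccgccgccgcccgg
The Smad9 window held 1 GGCGCC, whose first base lay 51 bases before the start, and no CAGAC. Neither motif was in the Smad6 or the Smad3 window. Of all 32851 promoter windows of this length, 11.9% held GGCGCC, 49.6% held CAGAC and 5.24% held both. A match is a description of these letters only. The Smad6 gene spans 63953076 to 64022059 and the Smad3 gene 63646767 to 63757994 on chromosome 9, and Smad9 spans 54755582 to 54801257 on chromosome 3 (mm10, GENCODE M21), so each window covers the 5′ end of its gene. No window is shown for the other members. Smad5 and Smad4 overlap other annotated genes, none of which is in the count table.

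The 4 libraries held 7141 to 9478 cells and 138647495 to 178279122 UMIs, molecular tags that count each captured transcript once, and any pair of libraries shared 11 to 24 cell barcodes. After filters 28440 of 33639 cells were left, in 31 clusters and 12 marker-based classes, each written with "-like". Levels are CPM, UMIs per 1000000 UMIs of all cells of a class in a library. These are tags of 3′ ends, which do not scale with transcript length. Intervals are 95% and exact and cover counting error only. Where 4 values follow each other, they are those of control, then doxorubicin, then doxorubicin+AMH, then AMH. Some cells stood apart by library. A granulosa-like cluster led by B230209E15Rik, Cntn4 and Inhba had 180 of its 182 cells in doxorubicin, and another led by Amh, Wfdc10 and Kctd14 had 79 of its 84 there. Oviduct-type epithelial-like cells numbered 141, 1, 43 and 235. Theca-like cells came from different clusters with and without AMH, as given beside their values.

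Of the receptor-regulated Smads of the BMP and AMH branch, Smad1 and Smad5 were highest in endothelium and Smad9 in granulosa-like cells. Smad1 was highest in lymphatic endothelial-like cells, with a median of 590.5 CPM over the 2 libraries that had 50 cells of that class. Blood endothelial-like cells followed at 189 CPM over 4 libraries (183 to 233) and mural smooth muscle-like cells at 66.6 CPM (61.5 to 77.8), with no overlap between the libraries of these classes. In granulosa-like cells Smad1 was at 32.2 CPM (25.9 to 34.1), and it overlapped there with theca-like and macrophage-like cells. Smad5 had a similar order, at 103 CPM in lymphatic and 60.7 CPM in blood endothelial-like cells against 34.4 CPM in granulosa-like cells. Smad9 was the rarest member, highest in granulosa-like cells at a median of 8.64 CPM (6.68 to 15.03). Its next class by median, mural smooth muscle-like cells, reached at most 3.68 CPM, and surface epithelial-like cells ranged from 0 to 15.6 CPM over 3 libraries.

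Of the TGF-β and activin branch, Smad2 was highest in lymphatic endothelial-like cells (94.9 CPM), then in granulosa-like cells (64.8 CPM, 63.1 to 68.2), whose range overlapped that of theca-like cells. Smad3 was highest in T or NK lymphocyte-like cells, at 96.3 CPM in 2 libraries. Macrophage-like, stroma-like and granulosa-like cells had Smad3 medians of 49.9, 49.0 and 49.0 CPM, with overlapping ranges. Smad4, the partner of both branches, was at 136 CPM in lymphatic endothelial-like and 125 CPM in granulosa-like cells, and its medians in the other classes were at most 95.1 CPM.

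The inhibitors had another order. Smad6 was highest in granulosa-like cells, with a median of 50.2 CPM and a wide range of 31.6 to 97.2 over the 4 libraries, overlapping that of surface epithelial-like cells (19.5 to 83.8 in 3 libraries). Smad7 was highest in T or NK lymphocytes, granulosa cells and blood endothelium by these classes, with medians of 124, 115 and 101 CPM and overlapping ranges. Bambi was low in granulosa-like cells (18.7 CPM, 15.7 to 22.5) and highest in blood endothelial-like (124 CPM), stroma-like (103 CPM) and mural smooth muscle-like cells (85.0 CPM). In the blood endothelial-like and stroma-like classes the Bambi ranges overlapped.

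**Figure D1:**
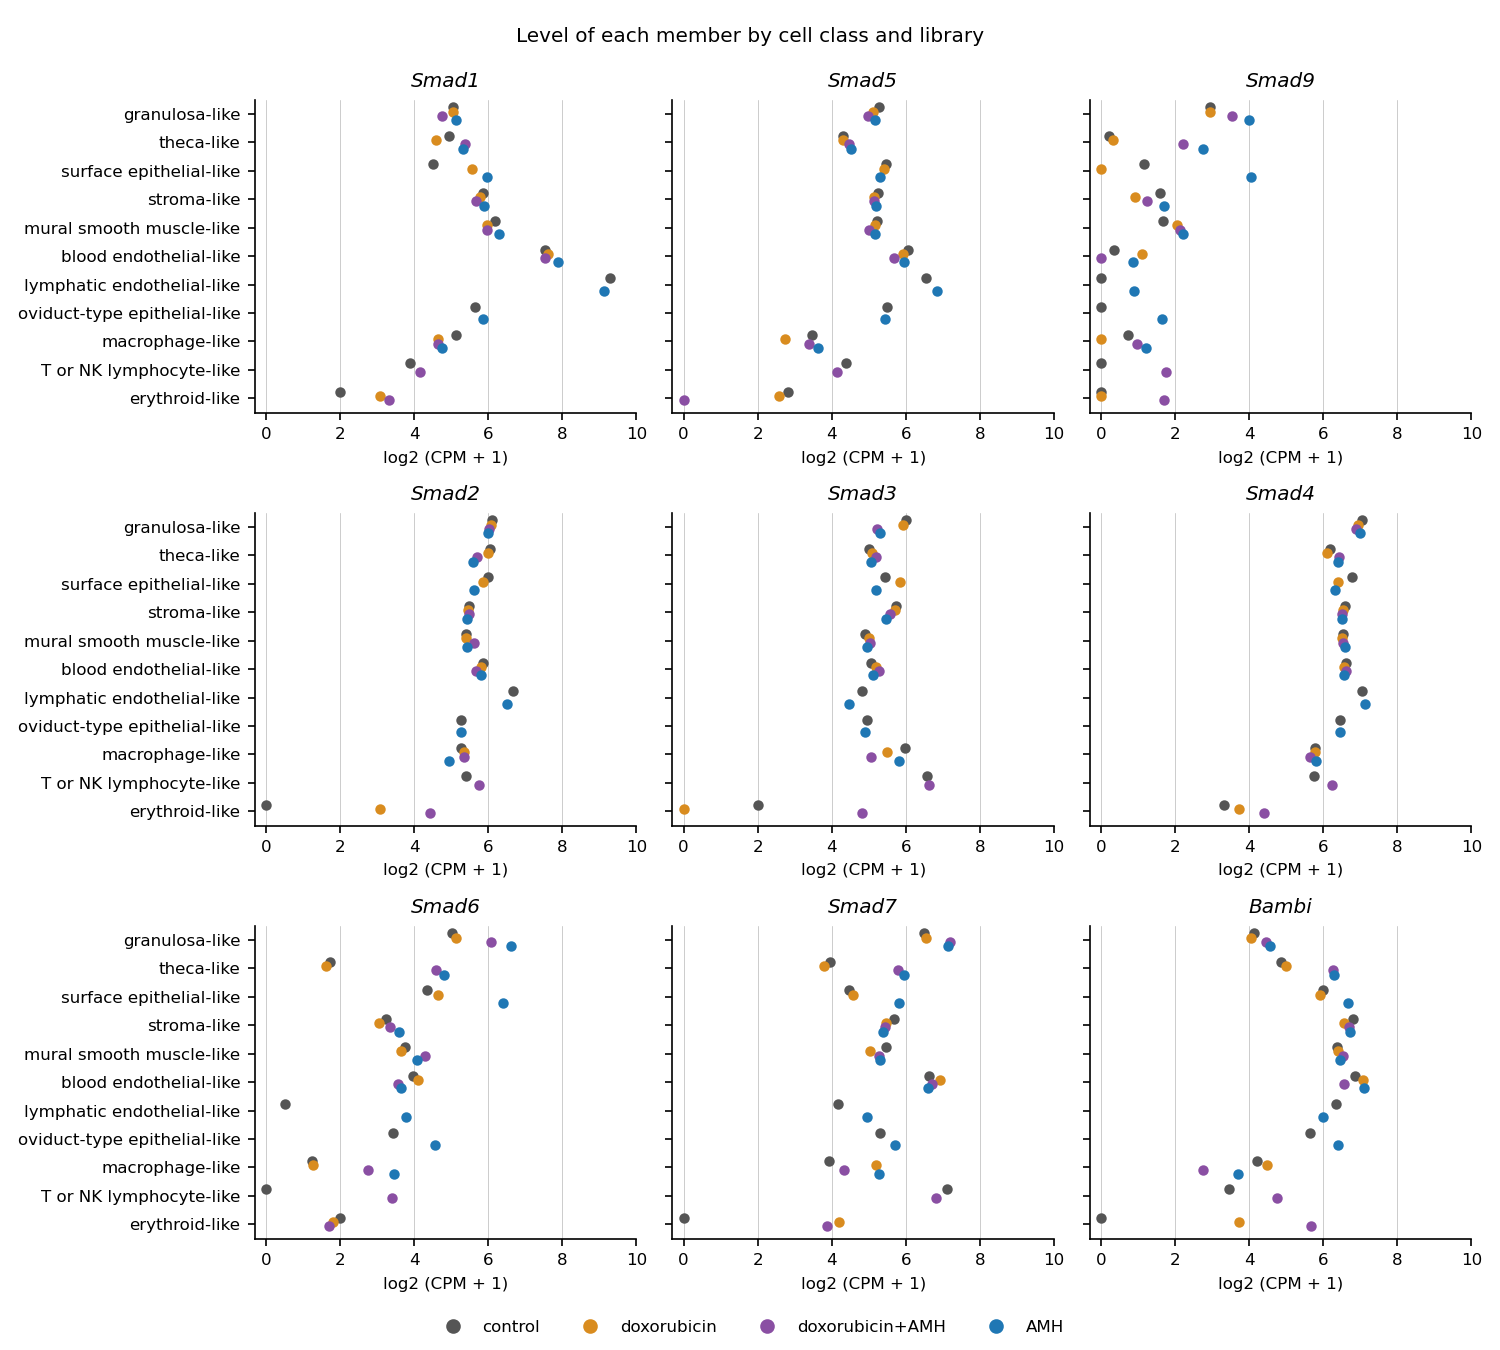
Levels of the 9 genes by cell class, with CPM on a log axis, 1 panel for each gene and 1 point for each library with at least 50 cells of the class. Smad1 is highest in the 2 endothelial classes, Smad6 and Smad9 in granulosa-like cells.

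In granulosa-like cells, the AMH-treated libraries had more of both inhibitory Smads and less Smad3 than their partners without AMH. Smad9, a rare receptor-regulated Smad, was also higher, and Smad1, Smad2, Smad4 and Smad5 were nearer to 1-fold. AMH was compared with control, and doxorubicin+AMH with doxorubicin. These pairs share no library. A gene was counted where its mean was at least 20 CPM over the 4 libraries and its ratio, with 5 CPM added to each level, was at least 1.5-fold the same way in both. Of the 9 genes 7 passed that minimum, and 2 of them, Smad6 and Smad7, were higher in both pairs, where 0.301% of all genes that passed were. A single member, Smad3, was lower, where 1.04% of all genes were. The median log2 ratio of the 7 members was -0.05 and -0.06, near that of all genes at -0.06 and -0.04.

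Smad6 was at 31.6, 34.1, 66.4 and 97.2 CPM in granulosa-like cells. It was 3.08-fold higher in AMH than in control (interval 2.93 to 3.24) and 1.95-fold higher in doxorubicin+AMH than in doxorubicin (1.85 to 2.05). Both libraries with AMH lay above both without, and AMH alone lay highest. The Smad6 level of doxorubicin+AMH was 0.683-fold that of AMH (0.657 to 0.709), whereas doxorubicin and control differed by 1.08-fold (1.02 to 1.15).

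Smad7 was at 89.3, 91.8, 145.4 and 139.2 CPM. It was 1.56-fold higher in AMH than in control (1.51 to 1.61) and 1.58-fold higher in doxorubicin+AMH than in doxorubicin (1.53 to 1.64), so both pairs gave about the same ratio. With each cell weighted equally the first pair fell short of the threshold, at a log2 ratio of 0.57. Smad3, which carries TGF-β and activin signals, was at 63.9, 59.3, 36.1 and 38.8 CPM. It was 0.607-fold in AMH against control (0.579 to 0.636) and 0.609-fold in doxorubicin+AMH against doxorubicin (0.577 to 0.642), and both libraries with AMH lay below both without. Smad3 no longer passed 1.5-fold in both pairs when cells were weighted equally, when libraries were scaled by median ratios, or when granulosa cells were taken by a marker gate on each cell. Its direction was the same in all of them.

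Bambi and Smad9 were under the minimum of 20 CPM. Smad9, at 6.68, 6.70, 10.6 and 15.03 CPM, was 2.25-fold higher with AMH alone (2.01 to 2.52) and 1.58-fold higher with AMH on doxorubicin (1.40 to 1.79). The order of its libraries was the same as for Smad6. Bambi, at 16.5, 15.7, 21.0 and 22.5 CPM, was 1.36-fold (1.26 to 1.47) and 1.33-fold (1.23 to 1.45) higher.

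The remaining members lay closer to 1-fold in granulosa-like cells. Smad4 was at 132.1, 122.9, 117.3 and 127.1 CPM, 0.962-fold and 0.954-fold in the 2 pairs. Smad2, at 68.2, 66.3, 63.4 and 63.1 CPM, was also lower in both libraries with AMH than in both without, but by less than Smad3, at 0.924-fold (0.887 to 0.963) and 0.956-fold (0.915 to 0.999). Smad5 gave 0.918-fold and 0.900-fold. Smad1, at 32.1, 32.3, 25.9 and 34.1 CPM, was 1.06-fold in AMH against control and 0.802-fold in doxorubicin+AMH against doxorubicin. Without the 2 clusters found almost only in doxorubicin, the log2 ratio of doxorubicin+AMH to doxorubicin was 0.84 for Smad6, 0.61 for Smad7 and -0.63 for Smad3, against 0.87, 0.64 and -0.65 with them. Median depth moved with the groups: granulosa-like cells had 22549, 21534, 20890 and 16157 UMIs. Granulosa markers (all 8 detected in each library) summed to 6191, 5812, 8205 and 6804 CPM there, and theca markers to 867, 810.4, 1029 and 888 CPM. The part of these in the ratios was not tested. In bulk sums such as these, fewer expressing cells and less RNA per cell cannot be told apart.

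**Figure D2:**
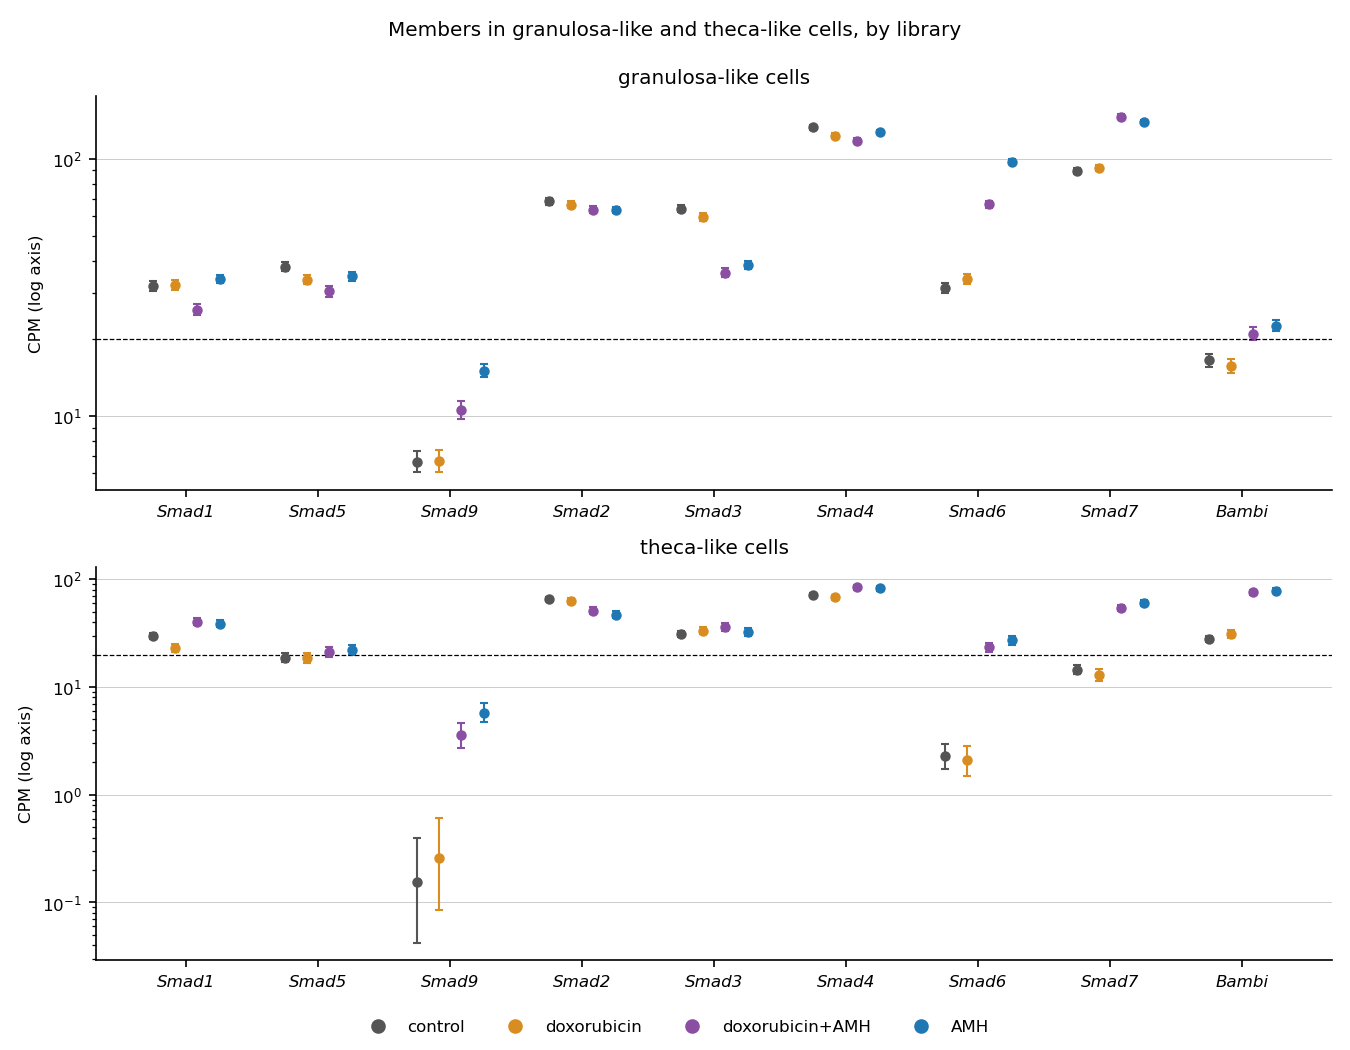
Levels of the 9 genes in granulosa-like and theca-like cells of each library, in CPM on a log axis with exact Poisson intervals of counting error. Smad6 and Smad7 lie higher in both libraries with AMH in either class, and Smad3 lies lower with AMH in granulosa-like cells, at 36.1 and 38.8 CPM against 59.3 and 63.9.

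The share of cells with a UMI was compared after each cell was thinned to 2000 UMIs. Smad6 was then seen in 5.98, 5.59, 12.4 and 15.7% of granulosa-like cells, against 33.4, 31.9, 51.5 and 51.2% before thinning. Thinning left out 50, 119, 98 and 126 shallower cells. Erythroid-like cells, taken as a type without Smad6, had it in 0 of 46, 54 and 59 thinned cells of control, doxorubicin and doxorubicin+AMH, which by the exact interval allows shares of up to 7.71, 6.60 and 6.06%, and in 1.69, 1.69 and 1.35% of unthinned cells at median depths of 5474, 6553 and 5472 UMIs. In macrophage-like cells, with median depths of 5782.5 to 8210.5 UMIs, Smad6 was seen in 0, 0, 2.94 and 3.57% of thinned cells, on 2, 1, 6 and 15 UMIs in all cells of that class, too few to tell the libraries of the doxorubicin pair with and without AMH apart. Thinned shares for Smad7 were 16.1, 16.7, 23.3 and 22.5% of granulosa-like cells. In erythroid-like cells of control, doxorubicin and doxorubicin+AMH, Smad7 was seen in 0, 0 and 3.39% of thinned cells, with upper limits of 7.71, 6.60 and 11.7%, and in 0, 5.08 and 8.11% of unthinned cells. The Smad7 shares of granulosa-like cells lie above these limits. Those of Smad6 in control and doxorubicin lie under the limits of the same libraries, so the share of cells that expressed it without AMH cannot be read from them.

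Within the granulosa-like class, 7 clusters held at least 50 cells in every library. Smad6 was higher in both AMH pairs in 7 of these 7, with folds of 1.20 to 13.8 and with both intervals above 1 in 6 of them. Smad9 was higher in both in 7, Smad7 in 6 and Bambi in 6, and both intervals lay above 1 in 4, 6 and 3 of them. Smad3 was lower in both pairs in 6 clusters, with both intervals below 1 in 4. The clusters share libraries and are no replicates of a treatment.

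The largest of these differences with narrow intervals lay in the cluster led by Cntn4, Slc18a2 and Cdh12, which held 15.1, 13.3, 6.65 and 7.92% of granulosa-like cells. Smad6 was at 13.0 CPM in control and 160 CPM in AMH there, 12.3-fold higher (10.3 to 14.7). It was at 12.0 CPM in doxorubicin and 127 CPM in doxorubicin+AMH, 10.6-fold higher (8.77 to 13.0). The cluster thus began below the class and lay above it with AMH. Smad9 was 9.42-fold and 9.51-fold higher in the same pairs, Smad7 2.25-fold and 2.74-fold, and Bambi 2.14-fold and 2.47-fold. Smad3 was at 141 and 64.3 CPM in control and AMH (0.457-fold), and at 123 and 53.7 CPM in doxorubicin and doxorubicin+AMH (0.436-fold). In the cluster led by Kcnq5, Bmpr1b (a BMP type 1 receptor) and Gm42303, Smad6 was already at 75.9 CPM in control and 87.4 CPM in doxorubicin, and was 2.17-fold and 1.20-fold higher.

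Amhr2 was looked up after these values were seen. It was at 220.0 to 257 CPM in the cluster led by Cntn4, Slc18a2 and Cdh12, and at 95.8 to 134 CPM in all granulosa-like cells. Across classes Amhr2 was at 154 to 230 CPM in surface epithelial-like, 56.1 to 72.8 CPM in theca-like, 7.03 to 13.7 CPM in mural smooth muscle-like, 5.74 to 10.6 CPM in stroma-like and 2.32 to 4.88 CPM in blood endothelial-like cells. It was at 3.40 to 12.8 CPM in oviduct-type epithelial-like, 2.91 to 22.2 CPM in lymphatic endothelial-like and 2.84 to 11.4 CPM in macrophage-like cells. Of these classes with little Amhr2, Smad6 was higher in AMH than in control in oviduct-type, lymphatic, macrophage-like, stroma-like and mural smooth muscle-like cells, with the values given under those classes. The highest Amhr2 level, 549 CPM, was in the 79 doxorubicin cells of the cluster led by Amh, Wfdc10 and Kctd14, where Smad6 was at 4.87 CPM. A relation between Amhr2 and the Smad6 ratios was not tested.

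**Figure D3:**
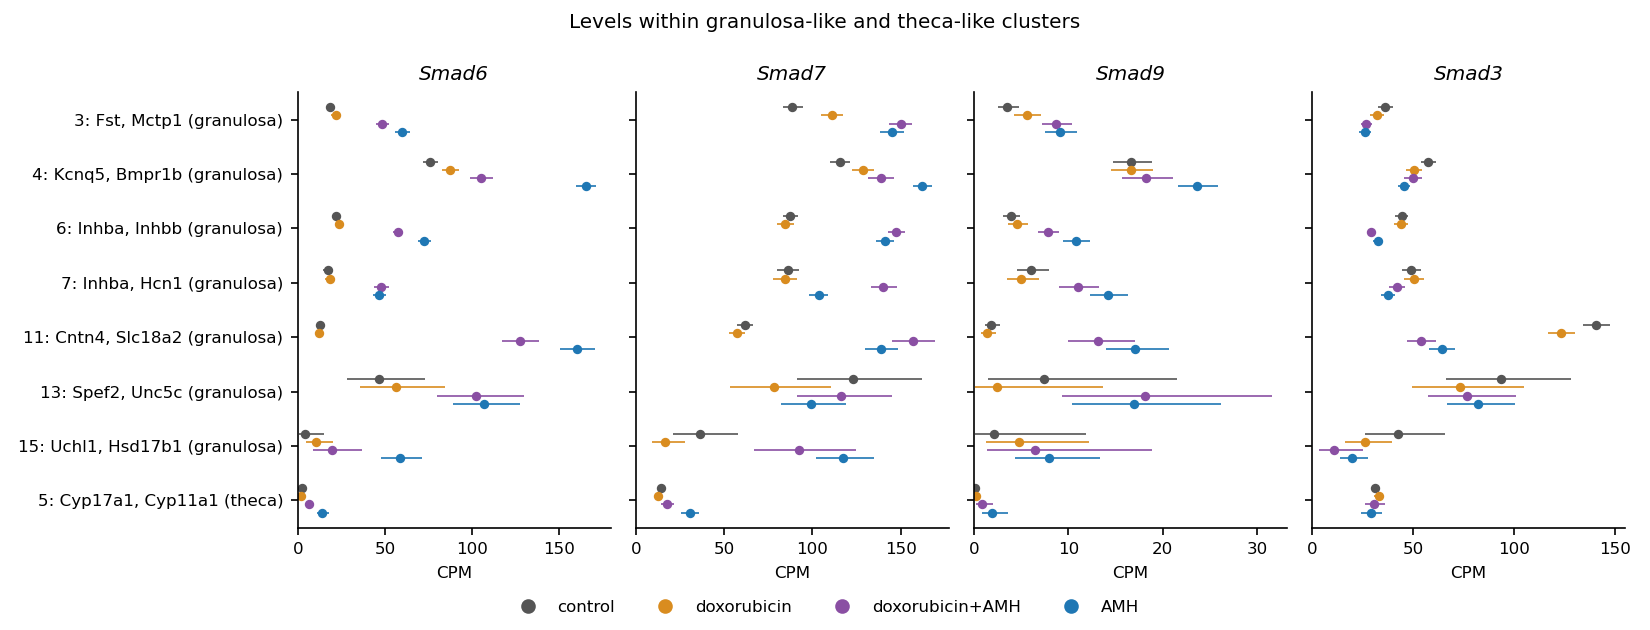
Smad6, Smad7, Smad9 and Smad3 within the granulosa-like and theca-like clusters that held at least 50 cells in every library, with intervals of counting error. Smad6 is higher in both AMH pairs in each of the 7 granulosa-like clusters, by 12.3-fold and 10.6-fold in the cluster led by Cntn4, Slc18a2 and Cdh12.

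Theca-like cells, the steroid-making cells around follicles, had more Smad6, Smad7, Smad9 and Bambi in both libraries with AMH. Of 7 members that passed the minimum, Smad7 and Bambi were at least 1.5-fold higher in both pairs, where 4.35% of all genes were. Smad7 was under 20 CPM in both libraries without AMH and passed the minimum through those with AMH, so its place in that count is partly set by the minimum, whereas Bambi was above it in each library. None was lower, where 6.76% were.

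Smad7 was at 14.5, 12.9, 54.0 and 60.5 CPM in theca-like cells, 4.17-fold higher in AMH than in control (3.70 to 4.71) and 4.19-fold higher in doxorubicin+AMH than in doxorubicin (3.63 to 4.85). Smad6 was at 2.30, 2.08, 23.3 and 27.1 CPM, from 59, 40, 362 and 477 UMIs, and was under the minimum. Its ratios were 11.8-fold (8.98 to 15.7) and 11.2-fold (8.06 to 15.9). For both inhibitory Smads the libraries with and without AMH lay far apart and those alike in AMH close together.

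Bambi was at 27.9, 31.0, 75.4 and 78.0 CPM, 2.79-fold (2.55 to 3.06) and 2.43-fold (2.20 to 2.69) higher. Smad9 had 4, 5, 56 and 102 UMIs, and its ratios of 37.2-fold (14.1 to 139) and 13.9-fold (5.60 to 44.3) have wide intervals. The other members differed less. Smad1, at 29.7, 23.1, 40.5 and 38.8 CPM, was 1.31-fold and 1.76-fold higher, and Smad2, at 65.6, 63.0, 51.2 and 47.0 CPM, was 0.717-fold and 0.813-fold. Smad3 was 1.05-fold and 1.07-fold, Smad4 1.16-fold and 1.23-fold, and Smad5 1.18-fold and 1.13-fold. Smad3 and Smad5 took the opposite direction in the Cyp17a1-led cluster described next, so no direction is given for them.

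The theca-like class did not hold the same cells in all libraries. The cluster led by Cyp17a1, Cyp11a1 and Hsd3b1, enzymes of steroid synthesis, held 98.8, 97.6, 24.5 and 18.8% of it, and the cluster led by Lhcgr, Prss35 and Dpp6 held 1.20, 2.43, 75.5 and 81.2%. Theca markers, 7 in all, summed to 15649, 15020, 5910 and 4912 CPM in the class, and stroma markers to 347, 401, 944 and 870 CPM. Granulosa markers, which mark the class with the highest Smad6, summed to 958, 979, 628 and 675 CPM in theca-like cells, lower in both libraries with AMH. Median depth of theca-like cells was 20568, 24382, 13942.5 and 12698 UMIs, also lower in both libraries with AMH. The part of these shifts in the class ratios was not tested beyond the next values.

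In the Cyp17a1-led cluster alone, Smad6 was at 2.23 CPM in control and 14.1 CPM in AMH, 6.34-fold higher (4.38 to 9.18). It was at 2.10 CPM in doxorubicin and 6.61 CPM in doxorubicin+AMH, 3.15-fold higher (1.93 to 5.13). Smad7 was 2.14-fold and 1.39-fold higher there, less than in the class, and its log2 ratios of 0.88 and 0.36 no longer passed 1.5-fold in both pairs. Bambi, at 27.8 and 55.0 CPM and at 30.5 and 71.8 CPM, was 1.98-fold and 2.35-fold higher and still passed. Smad3 was 0.937-fold in both pairs there (0.776 to 1.12 and 0.780 to 1.12), and Smad5 0.955-fold (0.749 to 1.20) and 0.764-fold (0.584 to 0.988).

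After thinning to 2000 UMIs, Smad6 was seen in 0.486, 0.183, 5.67 and 5.05% of theca-like cells, against 5.78, 5.57, 28.2 and 30.9% before, with 8, 30, 5 and 12 cells left out. The thinned shares in control, doxorubicin and doxorubicin+AMH lie under the limits that the erythroid-like cells of those libraries allow. AMH had under 50 erythroid-like cells and so no such limit. The shares without AMH are those of few cells, and the CPM with AMH were 23.3 and 27.1 against 5.71 and 9.96 in macrophage-like cells of the same libraries. Smad7 was seen in 4.01, 1.65, 9.82 and 12.5% of thinned cells. Those in control, doxorubicin and doxorubicin+AMH lie under the erythroid-like limits of 7.71, 6.60 and 11.7% given for those libraries. Bambi was seen in 4.37, 7.52, 15.6 and 16.0%. Erythroid-like cells of control, doxorubicin and doxorubicin+AMH had no thinned cell with Bambi, with the upper limits of 7.71, 6.60 and 6.06% given for Smad6, and had it in 0, 8.47 and 2.70% of unthinned cells. The Bambi share of theca-like cells lies under the limit in control and above it in doxorubicin and doxorubicin+AMH. The Bambi UMIs of all erythroid-like cells numbered 0, 5, 22 and 0, and the 22 of doxorubicin+AMH came from 2.70% of 74 cells, the others having none. Those of Smad7 numbered 0, 7, 6 and 2, which in doxorubicin is 17.3 CPM, above the 12.9 CPM of theca-like cells. The part of free RNA in these shares was not tested.

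**Figure D4:**
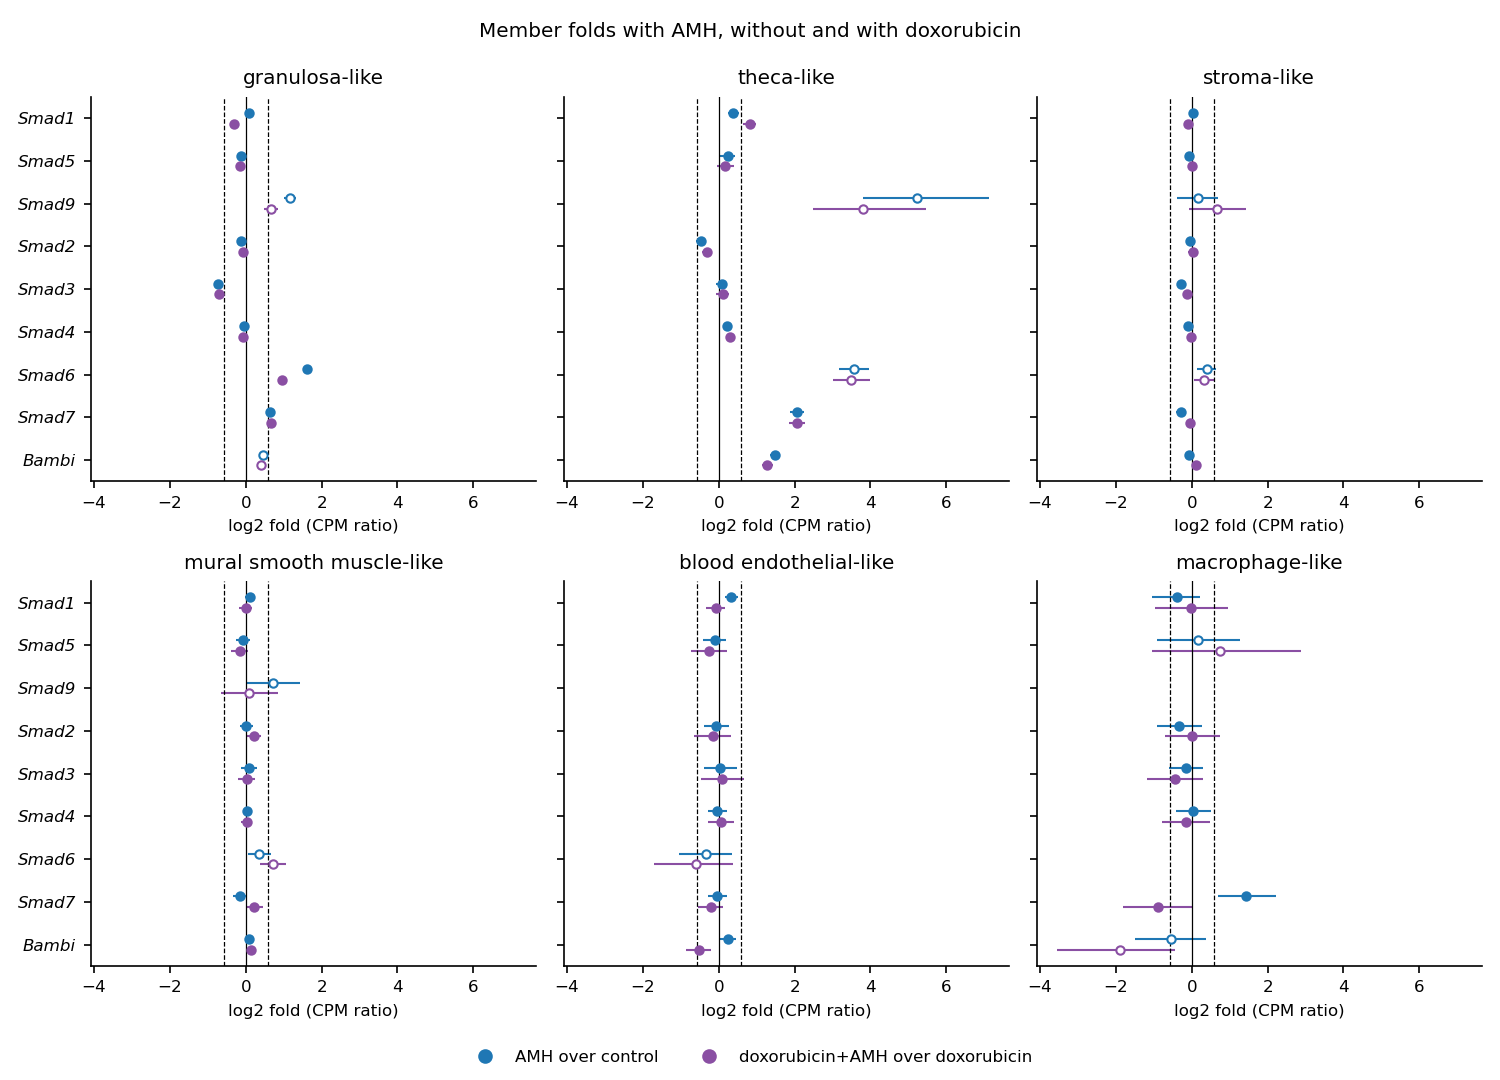
Ratio of each gene in 6 classes for both AMH pairs, on a log axis with exact intervals of counting error. Smad6 is 11.8-fold and 11.2-fold and Smad7 4.17-fold and 4.19-fold higher in theca-like cells, while in stroma-like cells the members that passed the minimum lie between 0.816-fold and 1.09-fold.

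In 4 further classes (stroma-like, mural, blood endothelial and macrophage) no member over the minimum passed 1.5-fold the same way in both AMH pairs. All genes did so in 0.0899% (higher) and 0.12% (lower) in stroma-like cells, and in 0.0758% and 0.394% in mural smooth muscle-like cells. In blood endothelial-like cells 0.611% of genes were higher and 0.946% lower, and in macrophage-like cells 0.96% and 1.36%. In stroma-like cells the 7 members that passed the minimum had ratios of 0.816 (Smad7) to 1.01 without doxorubicin and 0.913 to 1.09 with it. In mural smooth muscle-like cells they had 0.894 to 1.09 and 0.896 to 1.17. Smad6 was rare in both: it was at 8.48, 7.29, 9.19 and 11.1 CPM in stroma-like cells, 1.31-fold (1.11 to 1.55) and 1.26-fold (1.05 to 1.51) higher, and at 12.4, 11.4, 18.7 and 15.9 CPM in mural smooth muscle-like cells, 1.28-fold (1.04 to 1.58) and 1.64-fold (1.29 to 2.10) higher. In blood endothelial-like cells Smad6 was at 14.6, 16.2, 10.7 and 11.6 CPM, and both AMH ratios, 0.791 (0.480 to 1.28) and 0.661 (0.307 to 1.31), had intervals that include 1. In macrophage-like cells 5 members passed the minimum, and Smad6 did not. Smad6 rested on 2, 1, 6 and 15 UMIs there, with ratios of 7.43 (1.73 to 66.9) and 4.02 (0.488 to 185), the second with an interval that includes 1. Smad7 was 2.69-fold higher there in AMH than in control (1.60 to 4.67) but 0.536-fold in doxorubicin+AMH against doxorubicin (0.282 to 1.00), so the pairs went opposite ways.

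Surface epithelial-like cells were few, 102, 92, 36 and 65, so AMH was compared with control only and has no second pair. The class is 2 clusters: that led by Lgals7, Upk3b and Nrg1 held 64, 53, 34 and 30 of its cells, and that led by C3, Slpi and Upk3b held 38, 39, 2 and 35. Neither had 50 cells in AMH, so no ratio was taken within a cluster, and the class ratio may in part compare different clusters. Smad6 was at 19.5 CPM in control and 83.8 CPM in AMH, 4.30-fold higher (3.18 to 5.88). Smad7 was 2.65-fold (1.92 to 3.67), Smad1 2.85-fold (2.09 to 3.92) and Bambi 1.60-fold (1.30 to 1.98) higher. Smad9 had 4 UMIs in control and 26 in AMH (12.8-fold, 4.44 to 50.4). Smad4 and Smad2 were 0.727-fold and 0.764-fold. In doxorubicin against control Smad6 was 1.22-fold (0.859 to 1.74), Smad7 1.08-fold (0.765 to 1.54) and Smad1 2.15-fold (1.61 to 2.91). Smad4 was 0.765-fold (0.649 to 0.901) and Smad3 1.32-fold (1.05 to 1.66) in that comparison, and Smad3 was 0.843-fold (0.612 to 1.15) in AMH against control. Smad6 and Smad7 therefore differed mainly in the library with AMH, and Smad1 and Smad4 in both treated libraries. Granulosa markers summed to 549, 535 and 565 CPM in these cells of control, doxorubicin and AMH, stroma markers to 1933, 2523 and 4200 CPM, and the 7 surface epithelial markers to 5594, 4649 and 3866 CPM, with none at 0. Their part in the ratios was not tested.

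In oviduct-type epithelial-like cells AMH against control gave 2.34-fold for Smad6 (1.63 to 3.44), 1.71-fold for Bambi (1.44 to 2.03) and 1.34-fold for Smad7. In these cells of control and AMH granulosa markers were at 210.3 and 515 CPM, theca markers at 147 and 361 CPM, stroma markers at 268 and 550.0 CPM and the oviduct-type markers at 9749 and 6837 CPM. Their part was not tested. Lymphatic endothelial-like cells had 1 Smad6 UMI in control and 15 in AMH, a ratio of 30.8 with an interval of 4.74 to 1296.

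The balance of the 8 Smad genes does not depend on scaling to all UMIs. Inhibitory Smads, Smad6 with Smad7, made up 26.2, 28.1, 42.7 and 43.0% of Smad UMIs in granulosa-like cells, and Smad2 with Smad3 made up 28.6, 28.1, 20.1 and 18.5%. In theca-like cells the inhibitory share was 7.19, 6.75, 24.6 and 27.6%, and the Smad2 and Smad3 share 41.4, 43.4, 27.7 and 25.2%. Both classes thus had a larger inhibitory share in both libraries with AMH. All Smad UMIs together were at 462, 447, 496 and 549 CPM in granulosa-like and at 233, 222, 314 and 317 CPM in theca-like cells.

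In the granulosa-like cluster led by Cntn4, Slc18a2 and Cdh12 the inhibitory share was 14.5, 15.3, 48.1 and 45.6%. In the Cyp17a1-led theca-like cluster it was 7.07, 6.68, 10.2 and 17.3%, and in the Lhcgr-led one 29.2% in doxorubicin+AMH and 30.5% in AMH. Surface epithelial-like cells had 12.6% in control, 14.1% in doxorubicin and 33.3% in AMH. The share was 16.9, 15.5, 16.2 and 16.1% in stroma-like, 16.9, 14.2, 17.4 and 16.1% in mural smooth muscle-like and 20.5, 23.7, 21.5 and 18.3% in blood endothelial-like cells. Macrophage-like cells had 7.23, 18.1, 13.8 and 21.1%, higher in one AMH pair and lower in the other. From control to AMH the share was 16.3 and 22.5% in oviduct-type epithelial-like and 1.76 and 4.41% in lymphatic endothelial-like cells. In endothelium the BMP and AMH branch took the larger part: Smad1, Smad5 and Smad9 made up 69.8 to 72.0% of Smad UMIs in lymphatic and 43.9 to 50.5% in blood endothelial-like cells.

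**Figure D5:**
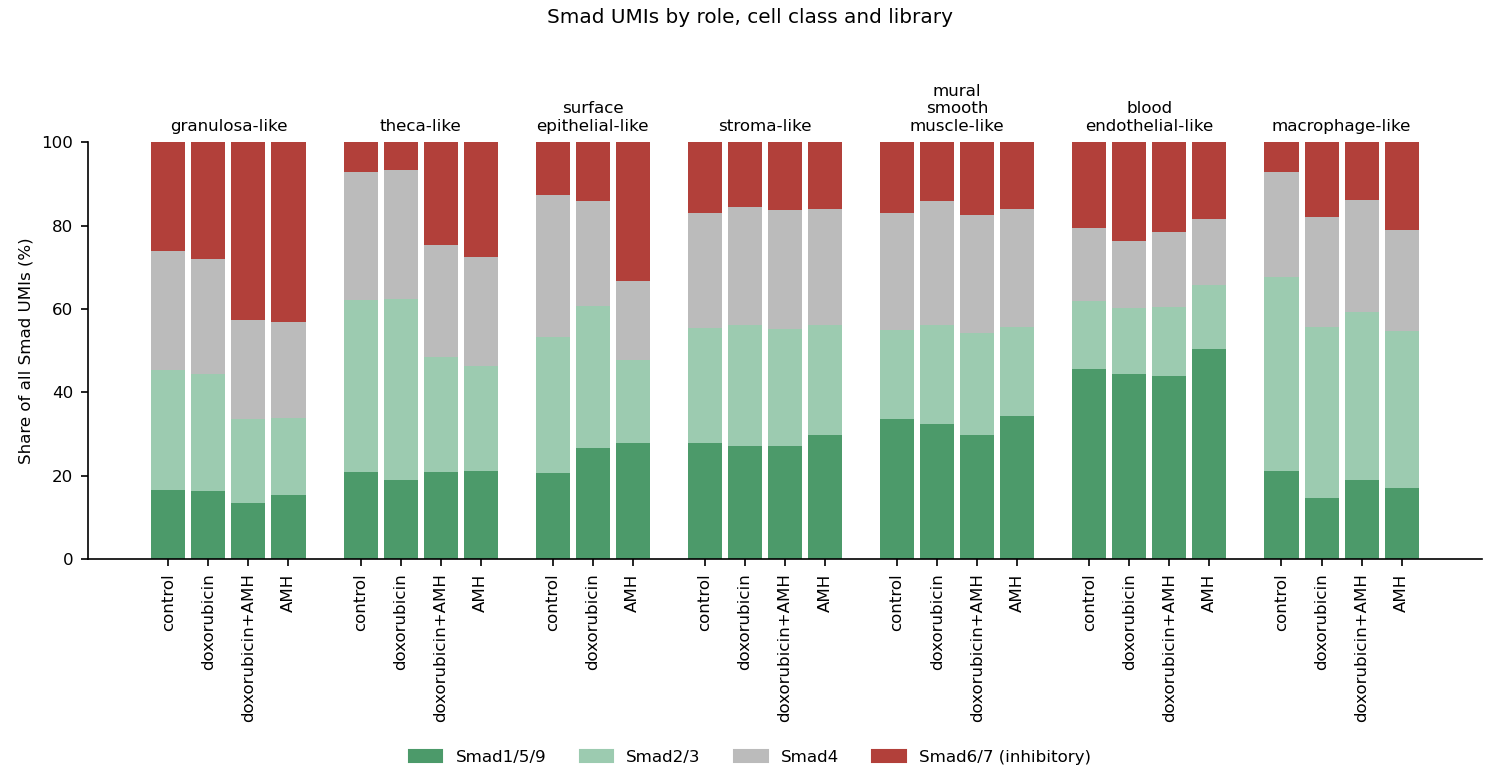
Share of the UMIs of the 8 Smad genes held by each role (receptor-regulated of either branch, common and inhibitory), as stacked bars in percent for each class and library. The inhibitory part is 42.7% and 43.0% with AMH against 26.2% and 28.1% without in granulosa-like cells, and between 15.5% and 16.9% in stroma-like cells.

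The ratios of the members spanned a narrower range for doxorubicin than for AMH in granulosa-like and theca-like cells. This was not so in all classes, nor for each member. Smad4 of granulosa-like cells was 0.930-fold and 0.923-fold in the doxorubicin pairs, lower than its 0.962-fold and 0.954-fold in the AMH pairs. Smad5 there was 0.892-fold and 0.873-fold against 0.918-fold and 0.900-fold. Smad3 of theca-like cells was 1.07-fold and 1.09-fold against 1.05-fold and 1.07-fold. Doxorubicin was compared with control, and doxorubicin+AMH with AMH, pairs that share no library with each other but do share libraries with the AMH pairs. No member over the minimum passed 1.5-fold the same way in both pairs in any of 6 classes. Of all genes 0% did so in granulosa-like, 0.0319% in theca-like and 0.0899% in stroma-like cells. The share was 0.728% in mural smooth muscle-like cells, 0.32% in blood endothelial-like cells and 1.73% in macrophage-like cells. In granulosa-like cells the 7 members that passed the minimum had ratios of 0.892 to 1.08 without AMH and 0.683 (Smad6) to 1.05 with it. In theca-like cells they had 0.777 (Smad1) to 1.11 and 0.893 to 1.09, and in stroma-like cells 0.853 (Bambi) to 0.985 without AMH and 0.860 (Smad1) to 1.08 (Smad3) with it. Smad9 was under the minimum in stroma-like cells, on 71, 28, 38 and 53 UMIs. Its ratios there were 0.438 without AMH (0.272 to 0.688) and 0.623 with it (0.399 to 0.962). Smad7 had the lowest ratio in mural smooth muscle-like cells without AMH, at 0.740, where the highest was 1.10, and with AMH these cells ranged from 0.791 (Smad1) to 1.13, at least as wide as in the AMH pairs. In macrophage-like cells Smad7 was 2.52-fold higher in doxorubicin than in control (1.36 to 4.74) and 0.503-fold in doxorubicin+AMH against AMH (0.286 to 0.8501), on 21, 25, 20 and 57 UMIs.

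Other genes of the pathway were taken from a list of 46 in 7 roles. In granulosa-like cells 28 passed the minimum, 1 was higher in both AMH pairs (of all genes 0.301%) and none was lower (1.04%). Inhba, which encodes a subunit shared by activin A and inhibin A, was at 475, 576, 1022 and 878 CPM, with log2 ratios of 0.88 and 0.82. In theca-like cells 28 passed, 4 were higher (of all genes 4.35%) and 1 was lower (6.76%). The inhibitors of differentiation Id1, Id2 and Id3, targets of the BMP branch, were the 3 of 6 listed targets of that branch that passed, and all were higher. Id3 was at 56.0, 66.4, 496 and 529 CPM, with log2 ratios of 3.13 and 2.81. Log2 ratios were 1.64 and 1.35 for Id1 and 1.45 and 1.56 for Id2. Col1a1, a collagen gene that is also a stroma marker, had log2 ratios of 0.78 and 1.08. Tgfbr3, a co-receptor that binds TGF-β and inhibin, was the lower gene, at 314, 367, 181 and 191 CPM. In granulosa-like cells Id2, at 197, 188, 284 and 344 CPM, had log2 ratios of 0.79 and 0.58, the second just short of the threshold of 0.585. There Id1 had log2 ratios of 0.05 and 0.20 and Id3 of 0.08 and 0.09. In stroma-like cells Id1, at 172, 119.8, 118.3 and 115 CPM, had log2 ratios of -0.56 and -0.02, and Id3, at 839, 640.4, 638 and 571 CPM, of -0.55 and 0.00. Control lay highest for both genes there. Id1 was also lower in AMH than in control in mural smooth muscle-like cells (159, 143, 106 and 81.5 CPM) and in blood endothelial-like cells (686, 519, 544 and 258 CPM). In stroma-like cells 34 passed, Inhba alone was higher (13.0, 16.2, 29.6 and 38.5 CPM) and none was lower, where 0.0899% and 0.12% of all genes were. Inhba passed the minimum there only through the libraries with AMH. It was also higher in both libraries with AMH in mural smooth muscle-like (13.2, 23.6, 37.4 and 39.2 CPM), macrophage-like (7.38, 9.95, 38.1 and 38.5 CPM) and blood endothelial-like cells (6.88, 5.03, 16.6 and 13.6 CPM), next to 1022 and 878 CPM in granulosa-like cells of those libraries. In theca-like cells Inhba was at 23.1, 42.6, 28.9 and 36.2 CPM, with no such order. The part of free RNA in these levels was not tested. None of the 46 passed in both doxorubicin pairs in these 3 classes.

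Levels were also compared over 36 sums of class and library in 11 classes, which share libraries and depth. Pearson's r of log2 levels was 0.84 between Smad6 and Smad9, 0.90 between Smad2 and Smad4, and 0.83 between Smad1 and Smad5. Among 7132 other genes, Cdh2, which encodes N-cadherin, was most like Smad6 (0.86), followed by Casp6 (0.80) and Dag1 (0.79). All 7132 had a mean of at least 20 CPM over these sums, whereas Smad6 and Smad9 had means of 17.8 and 2.71 CPM. Ephx2 was most like Smad9 (0.77) and Selenoh most like Smad7 (0.84). Cdkn1c (0.87) was most like Bambi and Fkbp1a (0.93) most like Smad1. Magi3 (0.94), Ankrd17 (0.97), Phf14 (0.97) and Tmem126a (0.91) were most like Smad5, Smad2, Smad4 and Smad3.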

How the data were processed

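The deposited matrices hold raw UMI counts per gene and cell, per the file headers the output of Cell Ranger 7.0.0, on mm10 per the submitters' processing notes, which also name R 4.2.0 and Seurat 4.1.0. Whether reads in introns were counted is not given in the sources used here. Libraries are 10x 3′ libraries per the labels' protocols, from ovaries dissociated with enzymes.

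Cells were kept from 1000 UMIs upward where mitochondrial genes held no more than 20% of them. Scrublet's own threshold marked 0 cells and was not used, and the 2083 cells with the highest scores were removed, at 0.8% per 1000 cells. Cells were clustered with scanpy 1.11.5 on 2000 variable genes without the members, the pathway genes or mitochondrial genes (30 components, 20 neighbours, leidenalg 0.10.2 at resolution 1). Clusters were named from marker lists, where at least 3 markers and 60% of a list were raised; these thresholds were chosen after values were seen. No class compared had a cluster with more markers of another class than of its own among its top 10 genes, but some were tied. The Lhcgr-led theca-like cluster had 2 theca and 2 luteal markers there. The granulosa-like cluster led by B230209E15Rik, Cntn4 and Inhba had 1 of its own and 1 of another class, and that led by Amh, Wfdc10 and Kctd14 had 0 of either.

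UMIs were summed per class and library with at least 50 cells. Ratios for calls are log2 with 5 CPM added. Intervals are exact: Poisson for levels, Clopper-Pearson for shares and conditional binomial for ratios. The ratio calculation was tested on simulated data. Alternatives were the cell filters, doublet removal, the pseudocount, the minimum, median-of-ratios scaling, equal weighting of cells and a marker gate per cell. A further 2 were added after seeing the data: leaving out clusters with over 90% of cells from 1 library, and the Cyp17a1-led theca-like cluster alone. Named genes were the 9 members, pathway genes past 1.5-fold in both pairs, the genes most like each member and the 3 leading genes of a cluster. The members and the lists were chosen with earlier results of these data known.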

Additional observations from a re-analysis of the deposited data

Results flagged for a closer look

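Each result here has ratios on opposite sides of 1 with and without the other agent. None of these differences was tested, since each group is 1 library, and the 2 ratios of a contrast are compared only as values. Values are log2 ratios with 5 CPM added, and the difference is the ratio with the other agent minus that without. In granulosa-like cells the AMH ratio of Smad1 was 0.08 without doxorubicin and -0.27 with it, a difference of -0.35 (folds of 1.06 and 0.802). There the doxorubicin ratio of Smad6 was 0.10 without AMH and -0.52 with it, a difference of -0.61 (folds of 1.08 and 0.683).

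Bambi was flagged in 2 classes. In stroma-like cells its AMH ratio differed by 0.19, from 0.945-fold without doxorubicin to 1.09-fold with it. In blood endothelial-like cells its doxorubicin ratio differed by -0.75, from 1.16-fold without AMH to 0.679-fold with it, and its AMH ratio by -0.75, from 1.19-fold to 0.693-fold. The last 2 rest on the same 4 libraries, with Bambi at 115, 133.8, 92.8 and 137 CPM, and the doxorubicin+AMH library had 61 of these cells and 95 Bambi UMIs. In macrophage-like cells the doxorubicin ratio of Smad7 differed by -1.92, from 2.52-fold without AMH to 0.503-fold with it, on 21, 25, 20 and 57 UMIs. Theca markers in these cells summed to 415, 189, 374 and 113 CPM and granulosa markers to 217, 320, 409 and 514 CPM, and their part was not tested.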

How the results depend on the processing

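Each group is 1 library, so no paired test was made and no replicate could be left out. With each cell weighted equally, members higher in both AMH pairs in granulosa-like cells numbered 1 (Smad6) instead of 2, where 19 of 6710 genes were. In theca-like cells they numbered 4 instead of 2 with no minimum level (Smad9, Smad6, Smad7 and Bambi), where 517 of 32285 genes were higher. In the Cyp17a1-led cluster alone, which has fewer cells, they numbered 1 (Bambi), where 199 of 6195 genes were higher. Members lower in granulosa-like cells numbered 0 instead of 1 under equal weighting, median-of-ratios scaling and the marker gate, with Smad3 at log2 ratios of -0.71 to -0.42 and -0.70 to -0.53 over all alternatives. Of all genes 41 of 6710, 44 of 6634 and 60 of 6555 were lower under these settings, in that order. The doxorubicin counts in granulosa-like and stroma-like cells were 0 throughout. No member ratio past 1.5-fold turned its direction.

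Inhibitory shares moved as follows. In granulosa-like cells control became 27.0% and doxorubicin 27.3% under equal weighting, doxorubicin+AMH 42.1% without doublet removal and AMH 42.5% under the gate. In theca-like cells control became 7.89% at a mitochondrial limit of 10% and 8.98% without doublet removal, and doxorubicin 8.07% without doublet removal. For doxorubicin+AMH the share was 28.1% under equal weighting, 22.5% under the gate and 10.2% in the Cyp17a1-led cluster, and for AMH 29.4%, 21.0% and 17.3%. The cause was not tested. Of 1304 recomputed member ratios 1227 stayed within their interval and 77 moved, and 119, all of ratios under 1.5-fold, turned direction. In the Cyp17a1-led cluster 7 turned, among them both AMH ratios of Smad3 and Smad5. Median-of-ratios scaling shifted the median of all genes by at most 0.10 (log2).

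Smad9 in theca-like cells without AMH (4 and 5 UMIs) and Smad6 in macrophage-like cells (1 to 15 UMIs) rest on few UMIs, and pooling of animals leaves no measure of spread.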
